A study of Mus musculus with 6 samples.

Results

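The RNA of 9 genes of the interferon system was followed in sorted mouse spermatogonial stem cells. They were picked by name as the rows whose Ensembl identifiers map to Stat2, Irf1, Irf7, Irf9, Ifit1, Ifit3, Isg15, Bst2 and Ifitm3, which gave 9 of the 51912 genes in the count table. The cells came from C57BL/6J testes at postnatal day 4 and were sorted for THY1 on the surface and against c-KIT, which enriches for stem cells of the male germ line. The 6 Smart-Seq2 libraries comprised 3 from wild type cells and 3 from Bud31-vKO cells, whose Bud31 gene had been removed by Cre-loxP recombination. Both groups share the strain, the age and the sort. The protocol speaks of single cells being collected and amplified, while each library is 1 column of counts and was treated as 1 bulk sample. The labels do not name the promoter that drives Cre, how many animals or cells stand behind a library, or whether libraries came from separate animals, so p-values here reflect differences among libraries that may be technical. BUD31 is a protein of the spliceosome, and the comparison asked how RNA levels differ in these cells when its gene is deleted.

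Interferons are secreted proteins that warn cells of infection. Type I interferons bind the receptor pair IFNAR1 and IFNAR2, whose kinases JAK1 and TYK2 phosphorylate STAT2. It acts with IRF9 in the complex ISGF3, which binds the interferon-stimulated response element (ISRE) in promoters of genes such as Ifit1, Ifit3, Isg15 and Bst2. Interferon gamma acts through another receptor and the gamma-activated site (GAS), as in the Irf1 promoter. In mouse germ cells Ifitm3, also called fragilis, is known as a marker of the early germ line.

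The libraries held between 13240704 and 18744466 reads each. They differed widely within a genotype: wild type library 3 and Bud31-vKO library 2 had reads for 13762 and 12464 genes, against 18171 to 22300 in the other 4. Bud31 measured 138, 96.8 and 158 CPM (read counts scaled to a common library size) in wild type libraries 1 to 3, against 47.2, 67.6 and 80.4 CPM in Bud31-vKO libraries 1 to 3, without overlap (unadjusted p = 0.0345, adjusted p = 0.9997, edgeR's quasi-likelihood test). Germ cell genes were present: Ddx4 and Dazl, RNA-binding proteins of germ cells, had at least 239 and 906 CPM in every library. Of genes of the stem cell pool, Gfra1 measured 43.6 to 240 CPM, Ret 74.6 to 199 CPM, Etv5 48.7 to 338 CPM and Zbtb16 14.5 to 254 CPM, while Nanos2 had 1 read in all 6 libraries. Stromal genes were present as well and had the larger sum, with 8390 to 21400 CPM for 6 genes such as Col1a1 and Dcn, against 1760 to 4130 CPM for 13 germ cell genes. The table's columns carry the letters C and T, read here as wild type and Bud31-vKO; the labels do not spell them out, and the lower Bud31 in the T columns goes with that reading.

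Scaled to exon length, most of the signal of the 9 genes came from Irf1, Ifitm3 and Bst2. In reads over the 6 libraries, Irf9 with 5026 lay above Bst2 with 3191. The classical interferon-induced genes were low. Isg15 had 1 read in all, Ifit1 had reads in 2 of 6 libraries and Ifit3 in 3 of 6, at up to 10.2 CPM in Bud31-vKO library 2. On the scale of CPM per kilobase of exon, which allows levels to be compared between genes, the mean over the 6 libraries was 122 ± 86.0 for Ifitm3, 97.7 ± 39.0 for Irf1 and 40.0 ± 13 for Bst2 (SD, n = 6). Irf9 followed with 10.3 ± 6.65 and Stat2 with 6.23 ± 3.37, then Ifit3 with 1.55 ± 2.36, Ifit1 with 0.908 ± 2.16, Irf7 with 0.355 ± 0.465 and Isg15 with 0.0161 ± 0.0395 (SD, n = 6). Only between Bst2 and Irf9 did the ranges of neighbours in this order stay apart. Irf1 stood above Bst2 in 6 of 6 libraries although their ranges overlapped, and Ifitm3 stood above Irf1 in 3 of 6. Among 13177 protein-coding genes tested, Irf1 ranked at percentile 92.0 or higher in every library, Ifitm3 at 88.5 or higher and Bst2 at 84.9 or higher.

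**Figure D1:**
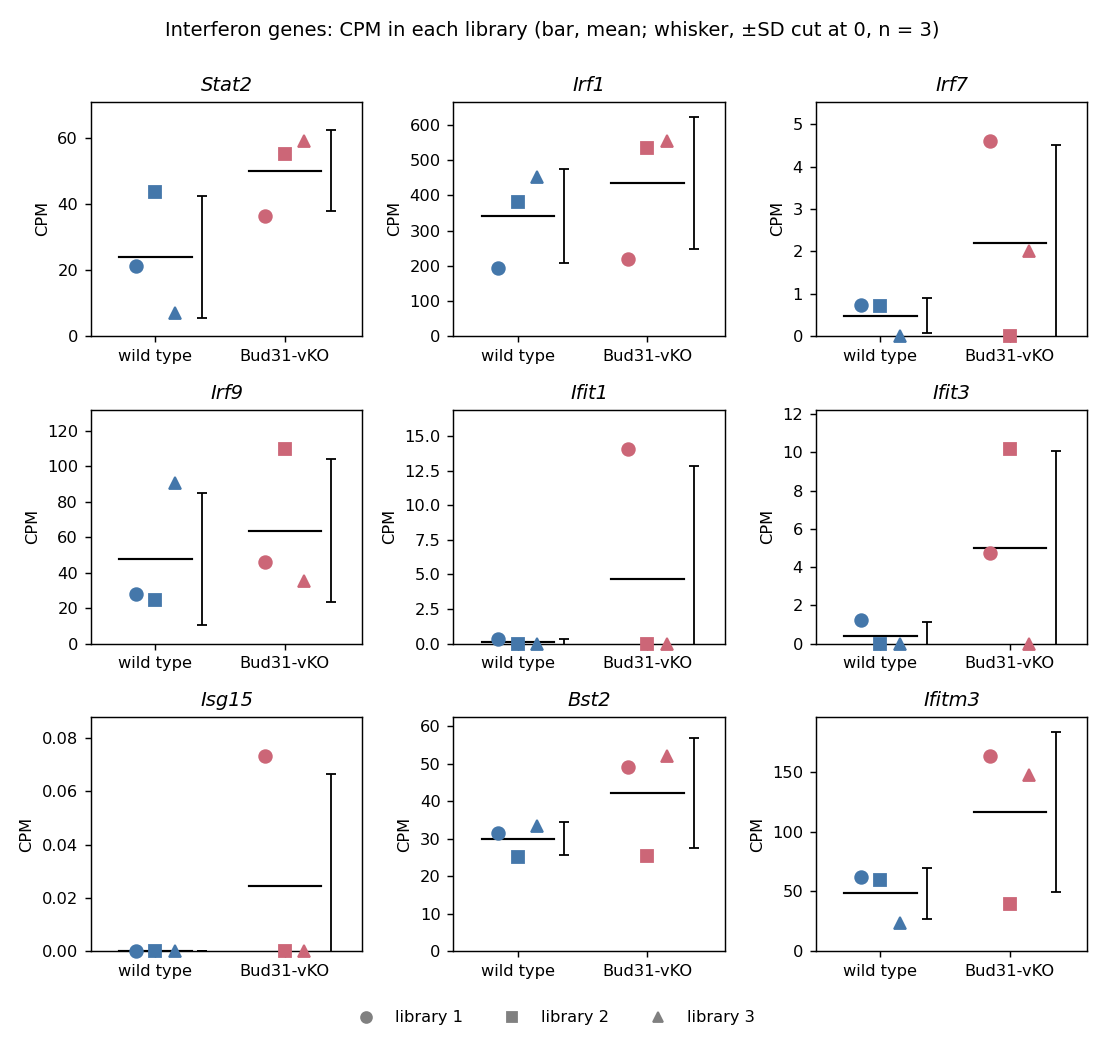
CPM of the 9 interferon genes in each library, by genotype (y axes linear from 0, each gene on its own scale; symbols mark library numbers within a genotype, horizontal lines the mean and whiskers the SD, drawn down to 0 at most, of 3 libraries). The genotypes overlap for every gene, Irf1 reaches 555 CPM, and Isg15 rests on 1 read in Bud31-vKO library 1.

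Core letters of the known interferon elements occurred in promoters of 7 of the 9 genes, and 4 promoters are shown because genes with the same letters lay at opposite ends of the range of levels. All 9 members matched the RefSeq promoter windows of GRCm38.p6, the assembly that mm10 stands for, which run from 250 bases before to 50 after each start. The core letters of the ISRE, GAAANNGAAA on either strand, occurred in the windows of Stat2, Ifit1, Ifit3, Isg15, Bst2 and Ifitm3, and in 3.44% of all 32851 windows. The GAS letters TTCNNNGAA, which read the same on both strands, occurred in those of Irf1, Bst2 and Ifitm3, and in 8.30% of all windows. Matches may overlap each other, and neither motif was found in the windows of Irf7 and Irf9, which says only that these letters are not there. In the sequences below, written 5′ to 3′ on the strand of the gene, capitals mark the motif letters.
Isg15, chr4:156200769-156201068, minus strand, with 3 overlapping ISRE matches: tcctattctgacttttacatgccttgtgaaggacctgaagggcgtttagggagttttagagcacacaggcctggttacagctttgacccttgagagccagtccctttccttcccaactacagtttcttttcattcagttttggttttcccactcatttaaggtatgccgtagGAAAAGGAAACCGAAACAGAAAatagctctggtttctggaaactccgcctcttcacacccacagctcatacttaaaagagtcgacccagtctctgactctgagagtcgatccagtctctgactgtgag
Ifit1, chr19:34640639-34640938, plus strand, with 2 ISRE matches: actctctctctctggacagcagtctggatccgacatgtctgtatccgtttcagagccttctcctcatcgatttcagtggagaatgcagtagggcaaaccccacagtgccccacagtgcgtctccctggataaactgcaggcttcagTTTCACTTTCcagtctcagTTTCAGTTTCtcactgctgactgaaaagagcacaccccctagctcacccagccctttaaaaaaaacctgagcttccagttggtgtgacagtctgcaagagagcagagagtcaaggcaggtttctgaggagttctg
Irf1, chr11:53769764-53770063, plus strand, first of 2 windows, with 1 GAS match: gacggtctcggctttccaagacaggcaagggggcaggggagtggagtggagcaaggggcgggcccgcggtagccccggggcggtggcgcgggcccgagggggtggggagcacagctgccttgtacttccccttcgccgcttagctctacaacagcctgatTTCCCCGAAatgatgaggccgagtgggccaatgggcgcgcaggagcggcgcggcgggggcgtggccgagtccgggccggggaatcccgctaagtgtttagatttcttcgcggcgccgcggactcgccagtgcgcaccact
Ifitm3, chr7:141010695-141010994, minus strand, with 2 ISRE matches after the start and 1 GAS match that overlaps the second: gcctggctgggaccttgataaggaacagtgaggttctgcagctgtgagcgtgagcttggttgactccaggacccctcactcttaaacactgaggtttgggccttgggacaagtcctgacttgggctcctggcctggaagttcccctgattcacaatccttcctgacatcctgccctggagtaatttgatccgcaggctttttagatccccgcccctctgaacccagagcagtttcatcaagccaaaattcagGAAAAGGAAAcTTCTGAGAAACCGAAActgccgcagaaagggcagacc
Isg15 and Ifit1, with 3 and 2 ISRE matches, had reads in 1 and 2 of the 6 libraries. Ifitm3, also with 2, and Irf1, with none, were the top members by CPM per kilobase. A match of letters is a description and not evidence of a bound site.

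**Figure D2:**
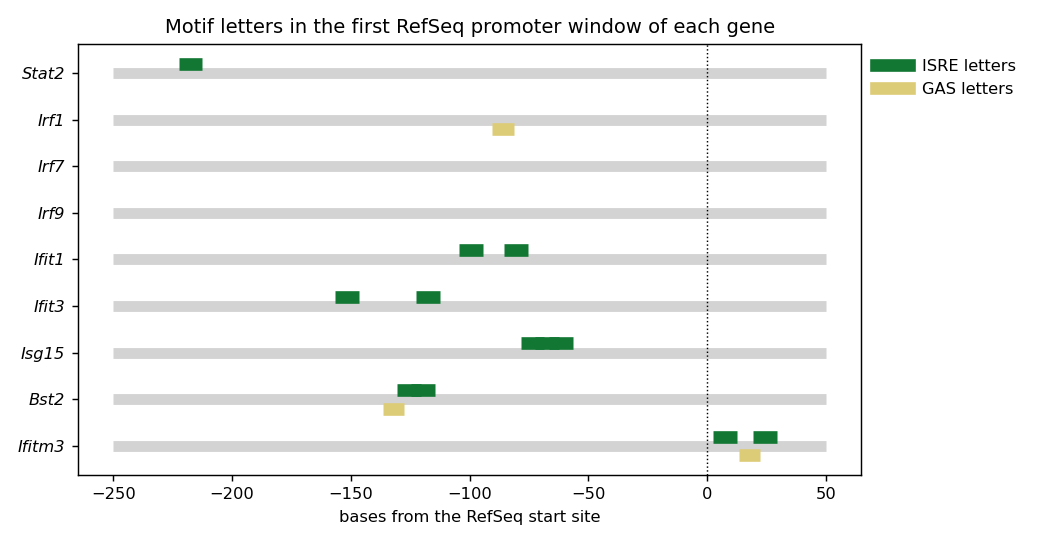
Positions of ISRE letters (green) and GAS letters (yellow) in the first RefSeq promoter window of each of the 9 genes; the x axis is the distance in bases from the start site (dotted line). Matches are present in 7 of the 9 windows, upstream of the start in all but Ifitm3.

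No member passed the test between genotypes. Over all 15240 genes tested, edgeR called 0% higher and 0% lower at an adjusted p under 0.05, and 2.91% had an unadjusted p under 0.05. Of the 7 members that passed the filter on low counts, 0 were called and 0 had an unadjusted p under 0.05; DESeq2 and limma-voom called 0 of them as well. The fitted log2 fold changes of these 7 were all above 0, with a median of 1.07, beside a median of 0.02 and 51.1% above 0 over all tested genes. With a stricter filter, which kept 5 members, the median was 0.51. Genotypes were without overlap for 0 of the 7, against 11.2% of all tested genes (4.76% with Bud31-vKO higher and 6.39% with it lower). The members were picked with earlier results known and low genes passed the filter partly through the group in which they were higher, so these counts describe the list and support nothing. A difference in bulk RNA cannot tell fewer cells of a type from less RNA per cell.

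The transcription factors behind the interferon receptors differed in level and in pattern. Gene positions are on GRCm38 from GENCODE M21. Stat2 (chr10:128270559-128292849, plus strand, up to 24 exons), which type I interferon receptors activate, measured 21.1, 43.4 and 6.99 CPM in wild type libraries 1 to 3, against 36.2, 54.9 and 59.0 CPM in Bud31-vKO libraries 1 to 3. Only wild type library 2 reached into the Bud31-vKO range. The means were 23.8 ± 18.3 and 50 ± 12.2 CPM (SD, n = 3 each), and the log2 fold change was 1.07 ± 0.79 (standard error, unadjusted p = 0.212, adjusted p = 0.9997, edgeR). With 1 library left out in turn, it ranged from 0.66 without wild type library 3 to 1.82 without wild type library 2. The unadjusted p of these 2 fits was 0.342 and 0.0935 (edgeR). Without both wild type library 3 and Bud31-vKO library 2 it was 0.57.

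Irf9 (chr14:55603571-55610030, plus strand), the DNA-binding partner of STAT2 in ISGF3, did not follow Stat2. It measured 27.8, 24.7 and 90.5 CPM in wild type, against 46.0, 110 and 35.1 CPM in Bud31-vKO. The highest value of each genotype lay in the library with the fewest genes detected, and the genotypes overlapped. The log2 fold change was 0.42 ± 0.72 (standard error, unadjusted p = 0.580, edgeR), and it was -0.23 without Bud31-vKO library 2. Exons of Irf9 share 123 bases with Rnf31 on the same strand.

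Irf1 (chr11:53770014-53778374, plus strand), a factor induced by interferon gamma and other cytokines, had ample reads in each library. It measured 192, 381 and 451 CPM in wild type, against 219, 534 and 555 CPM in Bud31-vKO, each on at least 2628 reads. Library 1 was lowest in both genotypes, and the ranges overlapped. Exons of Irf1 share 135 bases with Gm17334 on the opposite strand, whose reads cannot be told apart where strand was not used. The means were 341 ± 134 and 436 ± 188 CPM (SD, n = 3 each) and the log2 fold change was 0.35 ± 0.46 (standard error, unadjusted p = 0.468, edgeR).

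Irf7 (chr7:141262706-141266481, minus strand), the factor that amplifies type I interferon production, stood at the other end. It measured 0.729, 0.718 and 0 CPM in wild type, against 4.61, 0 and 2.0 CPM in Bud31-vKO, from 113 reads in all. Wild type library 3 and Bud31-vKO library 2 had no read, where 3 reads, the limit that a count of 0 allows, equal 0.175 and 0.214 CPM (counting error only). The log2 fold change of 2.17 had a standard error of 2.35 (unadjusted p = 0.382, edgeR), and the value was 1.05 without Bud31-vKO library 1. Its exons share 45 bases with Phrf1 on the opposite strand.

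The induced antiviral genes were sporadic. Isg15 (chr4:156199424-156200818, minus strand), a ubiquitin-like protein that is attached to other proteins after interferon, had 1 read among the 90923097 reads of the 6 libraries, in Bud31-vKO library 1. The limit for the 5 libraries at 0 was 0.166 to 0.222 CPM, so no fold change is given, and the gene was not tested. Of the 50-base words of the Isg15 transcripts in GENCODE M21, 3.96% also occur in transcripts of another gene, AC151275.1, which had no reads.

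Ifit1 (chr19:34640871-34650009, plus strand), which binds viral RNA that lacks the methyl marks of host mRNA, was carried by 1 library. It had 5, 0 and 0 reads in wild type, against 193, 0 and 0 reads in Bud31-vKO, or 14.1 CPM in Bud31-vKO library 1, which held 97.5% of its CPM summed over libraries. It missed the filter on low counts, and without that filter its unadjusted p was 0.141 and its adjusted p 0.769 (edgeR).

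Ifit3 (chr19:34583531-34588731, plus strand), a partner of IFIT1, was seen in 3 libraries. It measured 1.24, 0 and 0 CPM in wild type, against 4.75, 10.2 and 0 CPM in Bud31-vKO, so Bud31-vKO library 3 was as empty as wild type libraries 2 and 3. The log2 fold change of 3.58 had a standard error of 2.88 (unadjusted p = 0.250, edgeR). Of the 50-base words of Ifit3, 51.2% also occur in its copy Ifit3b, which had 13 reads, all in Bud31-vKO library 1, so the split between the copies is uncertain. Ifit2, the member of the family with the most reads, measured 3.65, 0 and 52.6 CPM in wild type, against 17.6, 31 and 15.1 CPM in Bud31-vKO, highest in a wild type library.

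The membrane proteins Bst2 and Ifitm3 were present in every library. Bst2 (chr8:71534255-71537456, minus strand), or tetherin, which holds budding virus at the cell surface, measured 31.5, 25.1 and 33.5 CPM in wild type, against 49.1, 25.3 and 52.0 CPM in Bud31-vKO. Bud31-vKO libraries 1 and 3 lay above all wild type libraries and library 2 among them. The means were 30.0 ± 4.36 and 42.1 ± 14.7 CPM (SD, n = 3 each) and the log2 fold change was 0.49 ± 0.62 (standard error, unadjusted p = 0.456, edgeR).

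Ifitm3 (chr7:141009586-141010770, minus strand), which blocks the fusion of virus with endosomes, had the smallest unadjusted p of the 7. It measured 62.0, 59.5 and 23.5 CPM in wild type, against 163, 39.7 and 147 CPM in Bud31-vKO. As for Bst2, Bud31-vKO libraries 1 and 3 were higher than every wild type library and library 2 was not. The means were 48.4 ± 21.6 and 117 ± 67.3 CPM (SD, n = 3 each), and the log2 fold change was 1.27 ± 0.64 (standard error, unadjusted p = 0.0840, adjusted p = 0.9997, edgeR). In each genotype the lowest value lay in the library with the fewest genes detected. The log2 fold change of Ifitm3 varied with the library left out. It was 0.96 without wild type library 3 (unadjusted p = 0.185, edgeR), the lowest with 1 library left out, and 0.97 without Bud31-vKO library 1. The highest was 1.69 without Bud31-vKO library 2 (unadjusted p = 0.0104, adjusted p = 0.9854, edgeR). Without both wild type library 3 and Bud31-vKO library 2 it was 1.36.

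The neighbouring family members had the same order of libraries in Bud31-vKO. Ifitm2 measured 50.2, 40.6 and 34.3 CPM in wild type, against 116, 48.9 and 95.2 CPM in Bud31-vKO (log2 fold change 1.06, unadjusted p = 0.0667, edgeR). Ifitm1 measured 18.3, 12.6 and 17.6 CPM against 34.1, 22.1 and 29.4 CPM, without overlap (0.82, unadjusted p = 0.329, edgeR). Of the 50-base words of Ifitm3, 10% also occur in other genes, among them Ifitm1 and Ifitm2; for Ifitm2 the share was 48.5%, mostly with predicted genes, of which Gm8865 had 105 reads and the others at most 4. Of the 7 IFITM genes listed 4 were tested, 0 were called by edgeR and the median log2 fold change was 1.03; of 6 IFIT genes 2 were tested, likewise with 0 called.

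**Figure D3:**
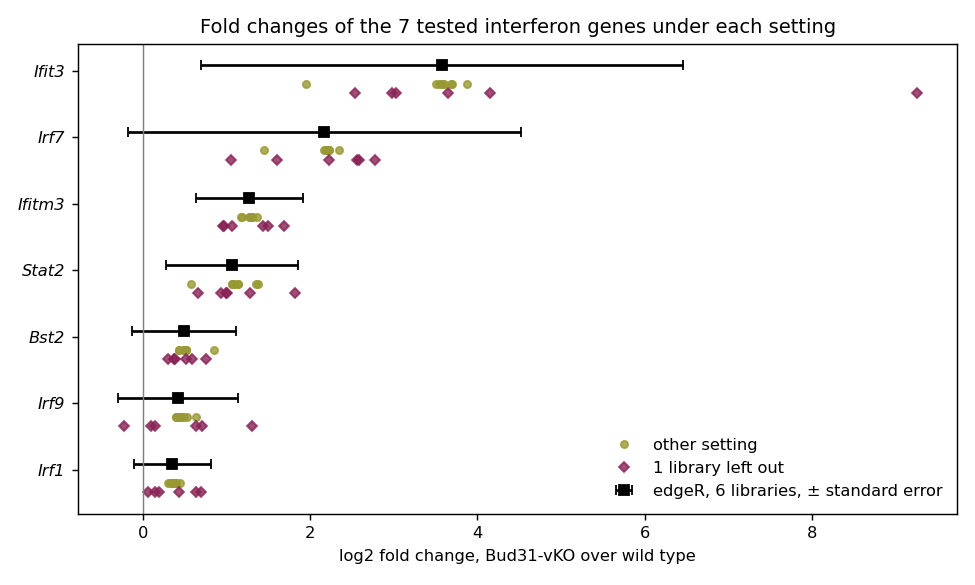
Log2 fold change (x axis, Bud31-vKO over wild type) of the 7 tested interferon genes (y axis), with the standard error of the edgeR fit to 6 libraries (black), and the values under other settings (olive) and with 1 library left out (purple). The standard errors of Irf1, Irf9, Irf7 and Bst2 reach below 0, and Irf9 is below 0 without Bud31-vKO library 2; the point of Ifit3 at 9.26 is the fit without wild type library 1, where wild type has no read of it and the value has no fixed size.

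Upstream of these genes, interferon transcripts were low or undetected, while most receptor and kinase genes had reads in every library. Of 21 interferon genes listed, 18 had no read in any library, among them Ifnb1 and every Ifna gene listed. Ifnk, an interferon of skin, missed the filter on low counts, with 10.5 CPM in wild type library 3 and 0 to 1.32 CPM in the other libraries, and Ifnl2 had 1 read. Ifng, the gene of interferon gamma, could be tested. It had 0, 31 and 0 reads in wild type, against 89, 86 and 75 reads in Bud31-vKO, or at most 1.71 CPM against 5.55 to 6.51 CPM. These ranges did not overlap, beside 4.76% of all tested genes without overlap and with Bud31-vKO higher. The log2 fold change of 3.39 had a standard error of 2.41 (unadjusted p = 0.198, edgeR). Ifng passed the filter on low counts mostly through Bud31-vKO, so the separation supports nothing.

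All 9 receptor and Janus kinase genes listed were tested. Ifngr1 and Ifnlr1 had no read in wild type library 3, and Ifnlr1, Il10rb and Tyk2 had none in Bud31-vKO library 2. Of the 9, 0 were called in either direction by edgeR, DESeq2 or limma-voom. An unadjusted p under 0.05 by edgeR was found for 1 gene, beside 2.91% of all tested genes. This was Ifngr2, the signalling chain of the interferon gamma receptor, with 47.0, 56.5 and 47.9 CPM in wild type, against 146, 133 and 81.2 CPM in Bud31-vKO, without overlap. Its log2 fold change was 1.25 ± 0.40 (standard error, unadjusted p = 0.0147, adjusted p = 0.9997, edgeR). Jak2, a kinase of the same receptor, also did not overlap, at 20.2 to 47.0 CPM against 54.1 to 68.0 CPM (0.71, unadjusted p = 0.229, edgeR). Higher in Bud31-vKO without overlap were thus 2 of the 9, beside 4.76% of all tested genes. Jak1, which serves both receptor types, measured 314 to 593 CPM against 319 to 367 CPM (-0.43, unadjusted p = 0.200), and the type I receptor gene Ifnar1 58.9 to 80.3 CPM against 48.4 to 95.7 CPM.

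In the remaining interferon lists edgeR, DESeq2 and limma-voom called no gene in either direction, and none had an unadjusted p under 0.05 by edgeR. Of the 11 STAT and IRF genes 10 were tested, with a median log2 fold change of 0.68. Irf8, a factor of myeloid cells, measured 3.70 to 10.7 CPM in wild type and 1.32 to 50.1 CPM in Bud31-vKO (1.74, unadjusted p = 0.226, edgeR), Irf2, a repressor of interferon genes, overlapped likewise, with 0.939 to 3.28 CPM against 0 to 17.4 CPM. Of 15 genes of nucleic acid sensing 13 were tested (median 0.75), led by Tbk1, the kinase that activates IRF3, with 56.4, 74.7 and 62.7 CPM against 111, 279 and 66.1 CPM (1.23, unadjusted p = 0.0577, edgeR); Ikbke, a related kinase, and Dhx58, a helicase, stayed at or below 12.6 CPM. Of 10 negative regulators 8 were tested (median 0.19), among them the phosphatase gene Ptpn2, with 48.7 to 92.1 CPM against 57.4 to 152 CPM (0.60, unadjusted p = 0.247, edgeR). Samhd1, which depletes the nucleotides that viruses need, had a lower mean in Bud31-vKO, with 130, 64.7 and 266 CPM in wild type, against 103, 40.2 and 50.1 CPM in Bud31-vKO (-1.26, unadjusted p = 0.0744).

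The 45 interferon-stimulated genes listed were split. Of the 30 tested, 19 were fitted above 0 and 11 below on the log2 scale (median 0.41), beside 51.1% of all tested genes above 0. The summed level of the 45 was 645 ± 236 CPM in wild type, against 710 ± 252 CPM in Bud31-vKO (SD, n = 3 each). Between 7 and 25 of the 45 had no read in a given wild type library and between 7 and 22 in a given Bud31-vKO library. The antiviral GTPases Mx1 and Mx2 stayed at or below 5.10 CPM in every library. Of the 8 OAS genes listed, whose family senses double-stranded RNA, 7 stayed at or below 8.5 CPM, and Oasl2 ranged from 10.1 to 64.0 CPM in wild type and from 0 to 120 CPM in Bud31-vKO. Trim30a measured 0 to 7.84 CPM in wild type, against 14.7 to 48.5 CPM in Bud31-vKO (3.22, unadjusted p = 0.124), and Parp9, with 17.3 to 32.6 CPM against 6.58 to 14.7 CPM, lay the other way (-1.40, unadjusted p = 0.164).

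Genes induced by interferon gamma had higher sums in every Bud31-vKO library. The 18 genes listed added up to 90.2, 125 and 82.2 CPM in wild type, against 584, 220 and 132 CPM in Bud31-vKO, a narrow gap between 125 and 132 CPM. Few genes carried these sums: in Bud31-vKO libraries 1 to 3, 3, 14 and 7 of the 18 had no read, against 3, 4 and 11 in wild type, and library 2 rested on Gbp7, Gbp8 and Gbp9, with 106, 61.7 and 49.8 CPM. Of the 13 tested, 12 were fitted above 0 on the log2 scale (median 1.43), beside 51.1% of all tested genes (median 0.02). None had an unadjusted p under 0.05 by edgeR. Genes such as Gbp7 and Gbp8 passed the filter on low counts partly through Bud31-vKO, where they were higher. These counts therefore describe the list and support nothing. Gbp7, a guanylate-binding GTPase of cell defence, measured 0.292, 13.2 and 0.0582 CPM in wild type, against 69.7, 106 and 21.1 CPM in Bud31-vKO (3.85, standard error 1.78, unadjusted p = 0.0628). Its relatives Gbp9 and Gbp6, with unadjusted p of 0.136 and 0.235 by edgeR, overlapped between genotypes, and Gbp2 had 159 CPM in Bud31-vKO library 1 but 0 and 1.40 CPM in libraries 2 and 3.

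Marker genes of other cells, whose part in these levels was not tested, also differed in sum. Of 13 T and NK cell markers 12 were tested and 0 were called by edgeR. Fitted above 0 were 11 of the 12 (median 1.82), beside 51.1% of all tested genes. An unadjusted p under 0.05 was found for 2 of the 12 by edgeR, beside 2.91% of all tested genes. Higher in Bud31-vKO without overlap were 3 of the 12, beside 4.76% of all tested genes. The summed level was 16.9, 160 and 111 CPM in wild type, against 251, 711 and 216 CPM in Bud31-vKO, without overlap. DESeq2 called 1 gene of this list and limma-voom 0. Of the defining NK cell genes, Klrb1c was without reads in wild type and measured 8.06 to 16.5 CPM in Bud31-vKO. Klrb1c thus passed the filter on low counts through Bud31-vKO alone. It is in both the count by unadjusted p and the count without overlap, so these counts describe the list and support nothing. Ncr1 had reads in Bud31-vKO library 3 only, at 7.10 CPM. In Bud31-vKO library 2 the T cell genes Cd3e, Cd3d and Trac and the cytotoxic gene Gzmb had no read. Other listed genes were present there, with Trbc1, Cd3g and Lck at 56.7, 31.3 and 19 CPM and Gzma at 32 CPM. Ptprc and Il2rb made up 328 and 224 CPM of that library's sum. The 11 macrophage markers summed to 18.5 to 229 CPM against 45.5 to 201 CPM. Of the 9 tested, 7 were fitted above 0 and 0 were called by edgeR. Without overlap were 2 of the 9, beside 4.76% of all tested genes with Bud31-vKO higher. These were Cd68 (7.02 to 12.5 CPM against 13.3 to 16.4 CPM) and Fcer1g (6.4 to 13.9 CPM against 31 to 40.6 CPM). Their defining gene Adgre1 was at or below 0.222 CPM in 5 of 6 libraries, and 8 of the 11 had no read in wild type library 3 and in Bud31-vKO library 2. The 6 dendritic cell markers summed to 0.524 to 2.92 CPM against 2.96 to 9.99 CPM, with Clec9a at 0 in all libraries and Siglech in 5. Only Itgax of this list was tested, with 0 to 0.146 CPM against 0.887 to 9.78 CPM, the last in Bud31-vKO library 2. Itgax passed the filter on low counts through Bud31-vKO alone, so its log2 fold change of 6.34 (unadjusted p = 0.033, edgeR) supports nothing. The 5 B cell markers summed to at most 10.3 CPM and the 5 neutrophil markers to at most 12.4 CPM in any library. Somatic markers overlapped between genotypes: the 7 Sertoli cell markers summed to 123 to 375 CPM against 107 to 1380 CPM and the 7 endothelial markers to 0.116 to 130 CPM against 4.35 to 204 CPM. Germ cell markers, 13 in number, summed to 3670 to 4130 CPM in wild type, against 1760 to 2540 CPM in Bud31-vKO. All 12 that were tested were fitted below 0 (median -1.16), while 51.1% of all tested genes were above 0. An unadjusted p under 0.05 by edgeR was found for 4 of them, beside 2.91% of all tested genes. Lower in Bud31-vKO without overlap were 5 of the 12, beside 6.39% of all tested genes. Of the list, 0 were called by edgeR, 1 by DESeq2 and 0 by limma-voom.

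**Figure D4:**
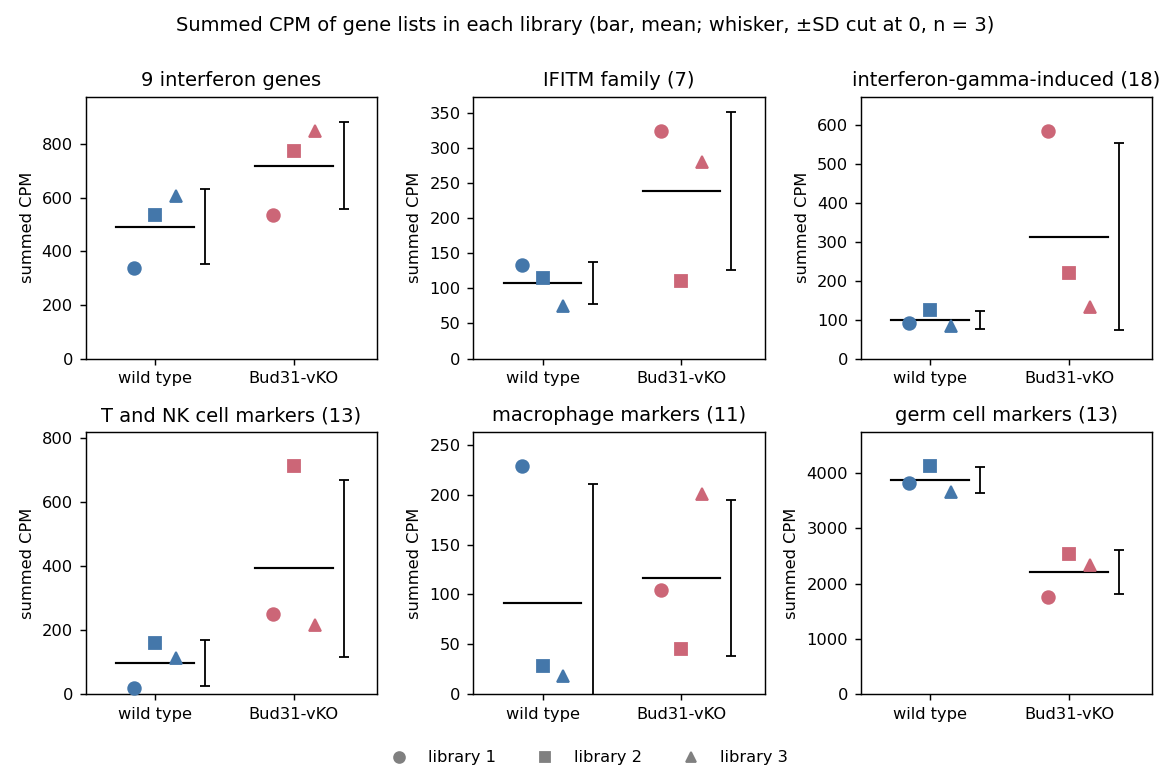
Summed CPM (y axes linear from 0) of the 9 interferon genes, the IFITM family, the interferon-gamma-induced genes and 3 lists of cell type markers in each library, by genotype (horizontal lines, mean; whiskers, SD of 3 libraries; symbols, library numbers). T and NK cell markers lie at 16.9 to 160 CPM in wild type, against 216 to 711 CPM in Bud31-vKO, germ cell markers lie lower in Bud31-vKO, and the 9 genes overlap between genotypes.

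Taken as 1 profile, the members differed in how they spread over the libraries. Their summed level was 336, 535 and 606 CPM in wild type, against 537, 773 and 850 CPM in Bud31-vKO, which overlapped, and Ifitm3 held from 3.88% to 30.4% of it. The mean of log2 CPM of the 7 tested members, in which low genes weigh as much as Irf1, was 4.00, 3.72 and 3.14 in wild type and 5.14, 4.58 and 4.46 in Bud31-vKO and did not overlap. This mean includes Irf7 and Ifit3, with 113 and 225 reads in all. The members were picked with earlier results known, so the separation describes the list and supports nothing. Between single members the closest pair was Bst2 and Ifitm3, whose centred log2 CPM differed by a root mean square of 0.73 over the 6 libraries, followed by Irf1 and Irf9 with 0.75. The genes nearest to the mean profile, out of 7626 with a mean of at least 20 CPM, were Rpl36 (0.13), Mettl22 (0.14), Lgals9 (0.16), Cox7a2 (0.19) and Dpp8 (0.19), given as root mean square distances in log2 CPM over 6 libraries. Rpl36 encodes a ribosomal protein, Lgals9 a galectin and Cox7a2 a subunit of cytochrome c oxidase. With 6 libraries and this many candidates, close profiles describe these libraries only.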

How the data were processed

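Smart-Seq2 libraries of sorted spermatogonial stem cells were used, 3 wild type and 3 Bud31-vKO. The authors deposited raw counts of reads for each Ensembl gene, whole numbers whose totals differ between libraries. The submitters' processing notes list bcl2fastq and the build mm10. For aligner, counter, annotation release and strand the entry is: not given in the sources used here. Symbols, exon lengths and overlaps came from GENCODE M21 (GRCm38), which named 51719 of 51912 identifiers.

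Genes were kept with filterByExpr (minimum count 10, minimum total 15), CPM and fits used the reads of kept genes scaled by TMM, and genotypes were compared with the quasi-likelihood test of edgeR 4.0.16 without covariates, adjusted by Benjamini-Hochberg over 15240 genes at 5%. Log2 CPM used a prior count of 2. DESeq2 1.42.0 and limma-voom 3.58.1 were alternatives, beside other scalings and filters, a block for the library number, a robust fit and each library left out; leaving out the 2 libraries with the fewest genes was added after seeing the data. The steps were tested on simulated data. An exact permutation test of 3 against 3 cannot go below 0.1 and was not used. Named genes were the 9 members, Bud31, the 3 genes of each list with the smallest p (some are not reported here), and the 5 nearest profiles; Ifnk, Ifnl2, Ifnar1, Ifngr1, Ifnlr1, Il10rb, Tyk2, Parp9, Gbp2, Gbp8, the Oas and Mx genes and the markers were added after their values were seen. The members and lists were chosen with earlier results of these data known. Depth and floors cover counting error only. Analyses ran in R 4.3.3 and Python 3.11.15.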

Additional observations from a re-analysis of the deposited data

How the results depend on the processing

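For the members, 0 were called under each of the 16 alternatives run. Stat2, Irf1, Irf7, Ifit3, Bst2 and Ifitm3 kept a log2 fold change above 0 in each alternative that tested them. Irf9 did so except without Bud31-vKO library 2, with -0.23 to 1.31 over the libraries left out in turn. The median of the members was 0.51 with at least 5 CPM in 3 libraries, where Irf7 and Ifit3 are not tested, and 0.85 when both few-gene libraries (wild type 3 and Bud31-vKO 2) were dropped. Over all genes, edgeR without a filter on low counts called 5 higher (Car2, Cd69, Gimap3, H2-K1 and H2-Q6, named after their values were seen) and 2 lower (Gm31579 and Isyna1). DESeq2 called 18 higher and 30 lower. None of these calls was in the interferon lists, which hold no gene of MHC class I such as H2-K1 and H2-Q6. The cause was not tested. With the library number as a block, 0 genes were called higher and 0 lower and the median of the members was 1.18. The numbers are not known to pair the libraries: deviations from group means correlated at 0.191, 0.041 and -0.076 for libraries 1, 2 and 3, and Bud31-vKO library 2 correlated best with wild type library 3. Counts of 0 limit what can be said of Isg15, Ifit1, Ifit3 and Irf7, and the biological coefficient of variation of 119% limits the rest.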
